A study of Mus musculus with 5 samples.

Results

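Extracellular nucleotides act on mouse intestine through 2 families of receptors, and enzymes on the cell surface end the signal. The genes described here are 10 of that system, taken by symbol from a table of 19198 genes: the G protein-coupled receptor genes P2ry1, P2ry2, P2ry4, P2ry6 and P2ry14, the ATP-gated channel genes P2rx1 and P2rx4, and the ectonucleotidase genes Entpd1, Entpd8 and Nt5e. All 10 were in the table. P2ry4 was picked because it differed between the 2 genotype groups in these same libraries, and the rest were added as its relatives by function. The values below are therefore a description of the contrast that chose the set, and none of them supports the choice.

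RNA came from small intestine of 5 mice, 1 library a mouse. Of these, 2 Cre-positive mice carried Math1Cre*PR on a floxed mAChR4 (Chrm4) background, and 3 Cre-negative littermates carried the floxed gene alone. Each of the 5 was gavaged with RU486 at 10 mg/kg a day for 4 days, so the floxed allele and the drug were common to both groups. Cre*PR is a Cre recombinase that RU486 switches on, and Math1 (Atoh1) marks secretory precursors of the epithelium, so most cells of the tissue would not carry active Cre. No mouse analysed here had the transgene with unfloxed Chrm4, and effects of the active recombinase and of the floxed gene cannot be told apart. Age, sex and the stretch of intestine sampled are not given in the labels.

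ATP and UTP leave cells when they are stretched, damaged or stimulated. P2Y receptors sense them, or the diphosphates made from them, through G proteins, and P2X receptors are channels that ATP opens. ENTPD enzymes cut ATP and ADP down to AMP, and the 5′-nucleotidase encoded by Nt5e turns AMP into adenosine, which has its own receptors. In the gut, nucleotides in the lumen are known to drive epithelial chloride secretion, and purines from enteric nerves relax smooth muscle.

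Totals ran from 4681119 to 6618204 estimated counts a library. As a sum, enterocyte markers were plentiful throughout. All 12 fixed ones were tested, and they summed to 8185 and 18789 CPM (counts scaled to library size, with TMM factors) in Cre-positive mice 1 and 2. The sum ran from 10103 to 18978 CPM in Cre-negative mice. Each of these markers except Anpep, Cdx2 and Epcam was lowest in Cre-positive 1. Fabp1 had 0 counts there, against 30.5 CPM in Cre-positive 2 and 6.86 to 102 CPM in Cre-negative mice. Libraries differed inside their groups. Lymphocyte markers summed to 439 CPM in Cre-positive 1 but 30.5 CPM in Cre-positive 2, against 13.9 to 34.1 CPM in Cre-negative mice. Onecut2, a proximal gene, stood at 69.4 CPM in Cre-negative 3 and at or under 3.89 CPM in the other libraries. Proximal markers did not share an order. Gata4 was also highest in Cre-negative 3 (47.4 CPM), but Slc40a1 was highest in Cre-positive 1 (234 CPM) and Cybrd1 in Cre-negative 1 (36.4 CPM). The bile acid transporter gene Slc10a2, an ileal gene, stood at 810 and 45.9 CPM in Cre-positive mice 1 and 2. It stood at 218, 376 and 6.52 CPM in Cre-negative mice 1, 2 and 3. The other distal markers were highest elsewhere, with Fabp6 highest in Cre-negative 2, Fgf15 and Cubn in Cre-negative 1 and Osr2 in Cre-positive 2. Smooth muscle markers summed to 1318 and 1574 CPM in Cre-positive mice and ran from 1572 to 4055 CPM in Cre-negative mice. In such bulk tissue, fewer cells of a type and less RNA per cell cannot be told apart.

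P2ry4 and P2rx4 were the 2 genes of the set whose Cre-positive libraries both lay above all Cre-negative ones, and their promoters are printed for that reason. Of all 14352 genes tested, 7.89% were separated in this way. Each sequence covers 250 bases before and 50 bases after the annotated start, from RefSeq on GRCm38.p6, read 5′ to 3′ along the gene's strand. P2ry4 lies at chrX:100594820-100595119 on the minus strand and P2rx4 at chr5:122707294-122707593 on the plus strand.
P2ry4: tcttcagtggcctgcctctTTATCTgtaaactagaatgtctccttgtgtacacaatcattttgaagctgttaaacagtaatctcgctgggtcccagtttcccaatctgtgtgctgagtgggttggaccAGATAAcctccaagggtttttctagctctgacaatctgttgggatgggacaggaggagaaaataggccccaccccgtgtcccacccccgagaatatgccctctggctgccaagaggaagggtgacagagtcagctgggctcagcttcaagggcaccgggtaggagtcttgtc
P2rx4: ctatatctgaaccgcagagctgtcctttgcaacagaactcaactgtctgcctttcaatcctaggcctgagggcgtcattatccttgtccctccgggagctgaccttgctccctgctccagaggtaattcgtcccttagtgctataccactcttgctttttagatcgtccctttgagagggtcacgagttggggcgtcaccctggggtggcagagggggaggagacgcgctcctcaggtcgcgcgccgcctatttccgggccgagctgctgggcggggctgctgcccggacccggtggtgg
Capitals mark AGATAA, the core of the GATA factor motif, on either strand. It was searched after the P2ry4 sequence had been read, and no other motif was used. P2ry4 held it 2 times, at positions 20 and 129 of the 300 bases, and P2rx4 did not hold these letters. Among 32851 promoter windows of the same length, 11.2% held at least 1 match and 1.14% held 2 or more. Since the P2ry4 sequence was read first, these shares are no test. Promoters were given for 9 of the 10 genes, and P2ry6 had none there. Of the other members, P2rx1 held 1 match and P2ry14 held 1 match in 3 of its 4 windows. A match is a stretch of letters and says nothing of binding.

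P2ry4 encodes a receptor for UTP and ATP, known from the apical side of mouse enterocytes. The gene had more counts in both Cre-positive libraries than in any Cre-negative one, where it was scarce. Its highest library, Cre-positive 1, was lowest for each fixed enterocyte marker except Anpep, Cdx2 and Epcam. Which cells held P2ry4 RNA was not tested. The gene (ENSMUSG00000044359, chromosome X, 100590154 to 100594869, minus strand, GRCm38, 3 exon blocks) overlapped no other annotated exon, and its deposited values were whole in every library. It had 292 and 95 counts in Cre-positive mice 1 and 2, against 10, 4 and 35 counts in Cre-negative mice 1, 2 and 3. The Cre-positive libraries were the 2 highest, and the lower of them stood at 2.59 times the CPM of the highest Cre-negative one.
Scaled to library size, Cre-positive 1 stood at 56.5 CPM, with an exact Poisson 95% interval of 50.2 to 63.4, and Cre-positive 2 at 14.8 CPM, with 11.9 to 18.1. Cre-negative 1, 2 and 3 stood at 2.40 CPM (interval 1.15 to 4.41), 0.741 CPM (0.202 to 1.90) and 5.70 CPM (3.97 to 7.93). The intervals hold counting error alone, and no Cre-positive interval met a Cre-negative one. Cre-positive 1 carried 3.83 times the level of Cre-positive 2, and the Cre-negative mice spanned 7.69-fold.
P2ry4 averaged 35.6 ± 29.5 CPM (SD, n = 2) in the Cre-positive and 2.95 ± 2.53 CPM (SD, n = 3) in Cre-negative mice. Its log2 fold change was 3.55 ± 0.80 (SE), the 9th highest of 14352 genes tested, and it did not pass when edgeR's p-values were adjusted over the table (adjusted p = 0.977). Leaving out Cre-positive 1 gave 2.32, leaving out Cre-positive 2 gave 4.25, and the value was 3.09 without Cre-negative 2 and 4.59 without Cre-negative 3. DESeq2's Wald test gave it an adjusted p of 0.0105, and it was the 1 member that any alternative called.

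**Figure D1:**
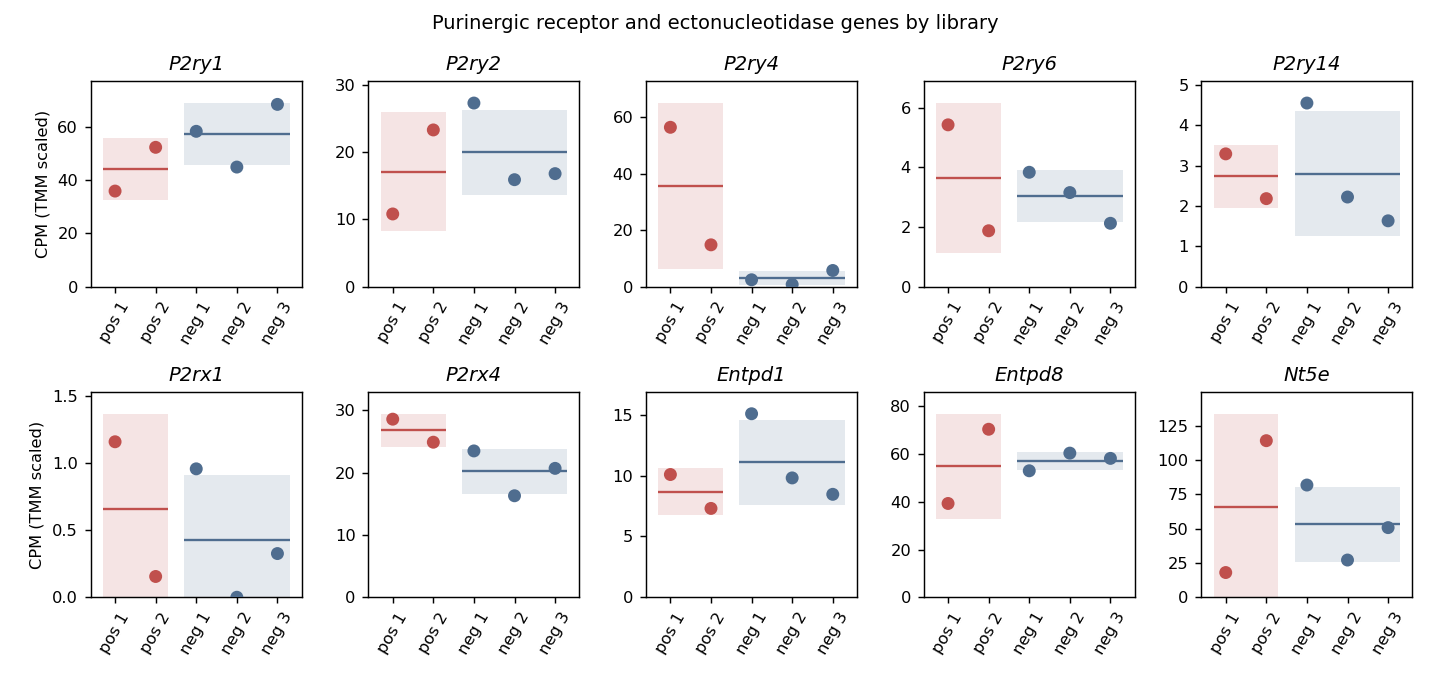
CPM (TMM scaled, vertical axis, linear from 0) of the 10 genes in each library, with Cre-positive (pos) in red and Cre-negative (neg) in blue. Points are mice, lines group means and shaded bands 1 SD. Only for P2ry4 and P2rx4 do both Cre-positive points lie above every Cre-negative point, as for 7.89% of all genes tested.

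None of the other 4 P2Y receptor genes separated the groups. Of all genes tested, 7.89% were separated with Cre-positive higher and 10.2% with Cre-positive lower. The make-up of the receptor set differed between libraries. P2ry1, the ADP receptor through which purines relax gut smooth muscle, had 185 and 336 counts in Cre-positive mice 1 and 2, against 243, 242 and 419 counts in Cre-negative mice 1, 2 and 3. That is 35.8 and 52.2 CPM in Cre-positive mice, against 58.2, 44.8 and 68.3 CPM in Cre-negative mice. The ranges overlapped, with the lowest value in Cre-positive 1 and the highest in Cre-negative 3, and the log2 fold change was -0.37 ± 0.28 (edgeR adjusted p = 0.977). P2ry1 shares exon sequence with Gm37035 on the opposite strand. The deposited values of P2ry1 were not whole in 4 libraries, while its sum with Gm37035 was whole (within 0.005) in 5 of 5. Gm37035 held at most 7.92 of these counts in any library.

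P2ry2, which like P2ry4 binds UTP and ATP, stood at 10.8 and 23.3 CPM in Cre-positive mice 1 and 2, against 27.3, 15.9 and 16.8 CPM in Cre-negative mice 1, 2 and 3. Its extremes fell in Cre-positive 1 and Cre-negative 1 and the groups overlapped (log2 fold change -0.22 ± 0.41). P2ry6, the UDP receptor, had 28 and 12 counts in Cre-positive mice, against 16, 17 and 13 counts in Cre-negative mice. Its Cre-positive libraries held both the highest and the lowest CPM, 5.42 and 1.87, around 3.83, 3.15 and 2.12 CPM in Cre-negative mice. P2ry14, which senses UDP-glucose, had 17 and 14 counts in Cre-positive mice, against 19, 12 and 10 counts in Cre-negative mice, with overlapping groups and a log2 fold change of -0.01 ± 0.58.

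Summed over the 5 P2Y genes, P2ry4 made up 50.5% of the counts in Cre-positive 1 (Wilson 95% interval 46.5 to 54.6) and 15.7% in Cre-positive 2 (13 to 18.8). Its share was 2.49% (1.36 to 4.52), 1.11% (0.432 to 2.81) and 6.03% (4.37 to 8.28) in Cre-negative mice 1, 2 and 3. This share needs no scaling between libraries, and its groups did not overlap. It is built from the same P2ry4 counts that chose the gene, so that separation is a description. The Wilson intervals hold counting error alone, with no spread between mice. Per kilobase of annotated exon, P2ry4 took 49.0% of the summed P2Y level in Cre-positive 1 and 14.9% in Cre-positive 2, against 2.37%, 1.05% and 5.75% in Cre-negative mice 1, 2 and 3. It ranked 1st of the 5 receptors in Cre-positive 1 and 3rd in Cre-positive 2, against 4th, 5th and 3rd in Cre-negative mice 1, 2 and 3. P2ry1 ranked above the other receptors in Cre-positive 2 and in the Cre-negative mice, with 54.6% of the per-length level in Cre-positive 2 and 59.5% to 71.2% in Cre-negative mice.

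**Figure D2:**
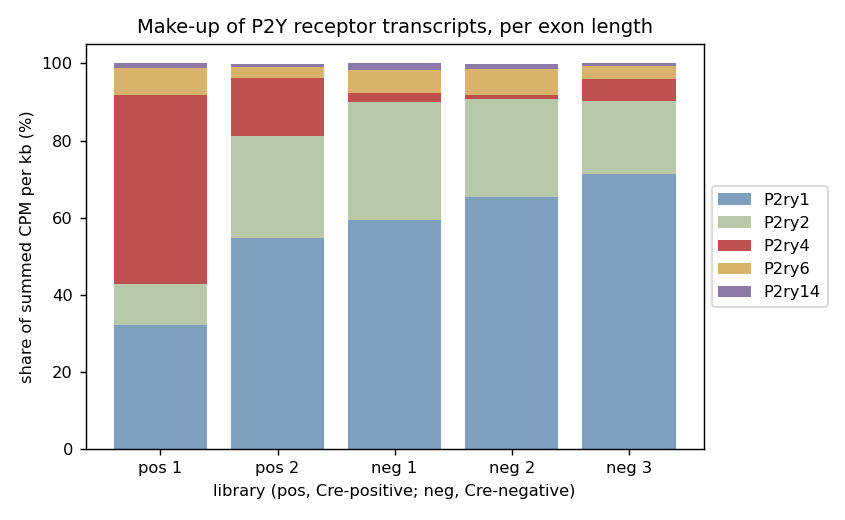
Share of the summed P2Y receptor level in each library (vertical axis, percent of CPM per kilobase of exon), stacked by gene, Cre-positive (pos) left of Cre-negative (neg). The red band of P2ry4 is 49.0% and 14.9% in the Cre-positive libraries and at most 5.75% in the Cre-negative ones, and P2ry1 is the main receptor in every library but Cre-positive 1.

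Of the ATP-gated channels, P2rx4, a widely expressed receptor that also sits in lysosomes, stood at 28.6 and 24.9 CPM in Cre-positive mice 1 and 2, against 23.5, 16.3 and 20.7 CPM in Cre-negative mice 1, 2 and 3. The groups were separated by the small step between Cre-positive 2 and Cre-negative 1, and the log2 fold change of 0.41 ± 0.26 did not pass (edgeR adjusted p = 0.977). P2rx1, a channel of platelets and smooth muscle, had 6 and 1 counts in Cre-positive mice, against 4, 0 and 2 counts in Cre-negative mice, and was the 1 member left out by the filter on low counts. The 0 allows up to 0.556 CPM with 3 counts taken as its limit, or 0.684 CPM by the upper end of the two-sided Poisson interval, and no difference was detectable at this depth. Platelet markers were also low: of 6 fixed markers 4 were in the table and none was tested. They summed to 3.29 and 1.87 CPM in Cre-positive mice, against 1.3 to 9.35 CPM in Cre-negative mice. The highest sum was in Cre-negative 1, where Pf4 had 24 counts (5.75 CPM).

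P2rx7, the channel known for releasing interleukin-1 from immune cells, is a neighbour of P2rx4 on chromosome 5, 16.1 kb away. Among the 41 genes of the wider pathway that were tested it was the 1 with an unadjusted p under 0.05, which 3.38% of all genes tested reached. It had 26 and 25 counts in Cre-positive mice, against 8, 10 and 15 counts in Cre-negative mice, which is 5.03 and 3.89 CPM in the Cre-positive mice, against 1.92, 1.85 and 2.44 CPM in the Cre-negative mice. Every Cre-positive value lay above every Cre-negative one, as for 7.89% of all genes tested. The log2 fold change was 1.09 ± 0.42 (edgeR adjusted p = 0.977). P2rx5 and P2rx6 had at most 7 counts in any library and were not tested.

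Among the ectonucleotidases, Entpd8 had the highest level per exon length. It encodes a surface enzyme that cleaves ATP and ADP, and it stood at 39.3 and 70.4 CPM in Cre-positive mice 1 and 2, against 53.0, 60.4 and 58.2 CPM in Cre-negative mice 1, 2 and 3. The Cre-positive mice lay on either side of the Cre-negative range, with a log2 fold change of -0.06 ± 0.28. Its exons meet those of Noxa1 on the opposite strand, and its deposited values were whole in every library. The counting notes used here do not say whether strand was used. Entpd1 (CD39), the enzyme of blood vessels and immune cells, stood at 10.1 and 7.31 CPM in Cre-positive mice, against 15.1, 9.82 and 8.47 CPM in Cre-negative mice. The groups overlapped (log2 fold change -0.35 ± 0.36). Endothelial markers summed to 19.7 and 4.82 CPM in Cre-positive mice and 7.17 to 12 CPM in Cre-negative mice. Macrophage markers summed to 69.7 and 20.7 CPM in Cre-positive mice and 22.3 to 80.0 CPM in Cre-negative mice.

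Nt5e (CD73) varied most after P2ry4 among the members tested, and it varied inside the groups rather than between them. It had 93 and 732 counts in Cre-positive mice 1 and 2, against 341, 146 and 311 counts in Cre-negative mice 1, 2 and 3. In CPM that is 18.0 and 114 in the Cre-positive mice, against 81.7, 27.1 and 50.7 in the Cre-negative mice. Cre-positive 2 carried the highest and Cre-positive 1 the lowest level, 6.32-fold apart. The log2 fold change of 0.32 ± 0.78 became -1.51 when Cre-positive 2 was left out and 1.14 when Cre-positive 1 was. The next 3 genes were picked after their values were seen, because they too were low in Cre-positive 1. Enpp3, an ectoenzyme that cleaves ATP, stood at 0.581 and 133 CPM in Cre-positive mice 1 and 2, against 148, 32.8 and 247 CPM in Cre-negative mice 1, 2 and 3. Slc28a1, a concentrative nucleoside transporter, had 0 counts in Cre-positive 1, which allows up to 0.581 CPM (3 counts), and stood at 48.8 CPM in Cre-positive 2, against 109, 34.5 and 53.8 CPM in Cre-negative mice. The lactase gene Lct stood at 3.48 and 632 CPM in Cre-positive mice, against 259, 15.8 and 881 CPM in Cre-negative mice. For these 3 genes and Nt5e, Cre-positive 1 was lowest and Cre-negative 2 next lowest. Not all epithelial genes were low in Cre-positive 1, but each fixed enterocyte marker except Anpep, Cdx2 and Epcam was lowest in that library. The aminopeptidase gene Anpep stood at 3735 and 4478 CPM in Cre-positive mice, against 2927, 3694 and 3473 CPM in Cre-negative mice, and the nucleoside transporter gene Slc28a3 at 40.6 and 29.5 CPM in Cre-positive mice, against 13.4, 49.7 and 29.0 CPM in Cre-negative mice.

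Per kilobase of exon, the order of the members by mean over the 5 libraries was Entpd8 at 20.7, P2ry1 at 12.1, Nt5e at 6.77, P2ry2 at 4.80, P2ry4 at 3.61, P2rx4 at 3.25, Entpd1 at 1.82, P2ry6 at 1.14, P2ry14 at 0.251 and P2rx1 at 0.198 CPM per kb. Neighbours in this order overlapped in their ranges over libraries except at 1 step, where P2ry6 (0.646 to 1.88 CPM per kb) stayed above P2ry14 (0.147 to 0.412 CPM per kb). P2ry4 stood at 12.7 and 3.33 CPM per kb in Cre-positive mice 1 and 2, against 0.540, 0.167 and 1.29 CPM per kb in Cre-negative mice 1, 2 and 3. The highest library held 76.2 times the CPM of the lowest for P2ry4, 6.32 times for Nt5e and 1.76 to 2.90 times for the other 7 members tested. Highest values were spread over libraries, with 4 of 10 members highest in Cre-positive 1 and 4 lowest there, so no single library was high for the set as a whole.

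Over the set, 0 of 9 members tested passed edgeR's quasi-likelihood test, as did 0% of all 14352 genes (lowest adjusted p = 0.977). P2ry4 was the 1 member with an unadjusted p under 0.05, which 485 genes (3.38% of all) reached. The groups did not overlap, with Cre-positive higher, for 2 of 9, where 7.89% of all genes did so, and with Cre-positive lower for 0 of 9, where 10.2% did so. The contrast had a part in choosing the set, and nothing is read from these counts. The median log2 fold change was -0.01 over the members tested and -0.04 over all genes tested. DESeq2 called 19 genes and limma-voom 0. An exact permutation test of 2 against 3 mice cannot give a two-sided p below 0.1.

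The wider purinergic pathway showed no gene past the test. Of 57 further genes 51 were in the table and 41 were tested, and 16 had a positive and 25 a negative log2 fold change, with a median of -0.12. Of all genes tested 45.5% had a positive one, and the median was -0.04. Among P2Y relatives only Gpr17 was tested, at 2.90 and 1.87 CPM in Cre-positive mice, against 2.64, 1.48 and 1.3 CPM in Cre-negative mice. P2ry10, a lipid receptor of lymphocytes, had too few counts in 4 libraries to be tested (unadjusted p = 0.0226 in the edgeR fit without a filter). Together with its copy P2ry10b, with which reads were divided, it had 139 counts in Cre-positive 1 and 3 in Cre-positive 2, against 5, 3 and 5 in Cre-negative mice 1, 2 and 3. That 1 library is also the one with 439 CPM of lymphocyte markers, and their part in the value was not tested. P2ry12 and P2ry13 had at most 16 counts in any library.

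Of 9 further nucleotide hydrolases tested, 8 had a negative log2 fold change and the median was -0.35, while 45.5% of all genes tested had a positive one. Alpi, the intestinal alkaline phosphatase of the brush border, stood at 114 and 533 CPM in Cre-positive mice, against 453, 231 and 384 CPM in Cre-negative mice. Entpd7, an intracellular relative of CD39, stood at 63.7 and 227 CPM in Cre-positive mice, against 203, 114 and 265 CPM in Cre-negative mice. Both were lowest in Cre-positive 1 and overlapped between the groups. Enpp1 and Entpd6 were the 2 of 9 whose Cre-positive values lay below every Cre-negative one, as 10.2% of all genes did. Enpp1 stood at 10.8 and 12.1 CPM in Cre-positive mice, against 13.5 to 22.0 CPM in Cre-negative mice. Entpd6 stood at 3.48 and 4.82 CPM in Cre-positive mice, against 5.27 to 6.67 CPM in Cre-negative mice. Neither of these 2 genes reached an unadjusted p of 0.05 (0.153 and 0.173 in edgeR).

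For release and for adenosine, no gene tested had an unadjusted p under 0.05 in edgeR, which 3.38% of all genes tested reached. The lists held 2 tested genes for release, 2 for adenosine receptors and 9 for uptake and breakdown, too few to read anything from this. Panx1, a channel that lets ATP out of cells, stood at 42.8 and 50.7 CPM in Cre-positive mice, against 30.2, 43.0 and 48.4 CPM in Cre-negative mice. Slc17a9, the vesicular nucleotide transporter, had at most 13 counts. The adenosine receptor genes Adora1 and Adora2b had log2 fold changes of -0.40 ± 0.57 and -0.42 ± 0.89. Xdh, which oxidises purines to uric acid, stood at 243 and 437 CPM in Cre-positive mice, against 311, 399 and 419 CPM in Cre-negative mice. Pnp, which splits inosine and guanosine, averaged 136 CPM in the Cre-positive and 126 CPM in the Cre-negative mice. Of the 9 genes of adenosine uptake and breakdown tested, 5 were positive and 4 negative.

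Downstream of P2Y receptors no gene tested had an unadjusted p under 0.05 in edgeR either, where 3.38% of all genes tested did. With 10 and 7 genes tested in the 2 lists, nothing is read from this. Of 10 genes for Gq proteins, phospholipases and calcium release channels, 2 were positive and 8 negative, with a median log2 fold change of -0.11. Over all genes tested, 45.5% were positive and the median was -0.04. Gna11 averaged 441 CPM in the Cre-positive and 466 CPM in the Cre-negative mice. Plcb3 averaged 222 CPM in the Cre-positive and 274 CPM in the Cre-negative mice. Gnaq stood at 55.7 and 60.8 CPM in Cre-positive mice, against 62.1 to 76.9 CPM in Cre-negative mice, and did not reach an unadjusted p of 0.05 (0.304 in edgeR). Of 7 effector genes, for channels, a channel subunit and chloride loading, 4 were positive and 3 negative. Slc12a2, which loads chloride into secreting cells, stood at 268 and 117 CPM in Cre-positive mice, against 100, 90.2 and 175 CPM in Cre-negative mice. Cftr, the apical chloride channel, stood at 130 and 96.7 CPM in Cre-positive mice, against 69.0, 88.2 and 117 CPM in Cre-negative mice. Both overlapped between the groups.

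**Figure D3:**
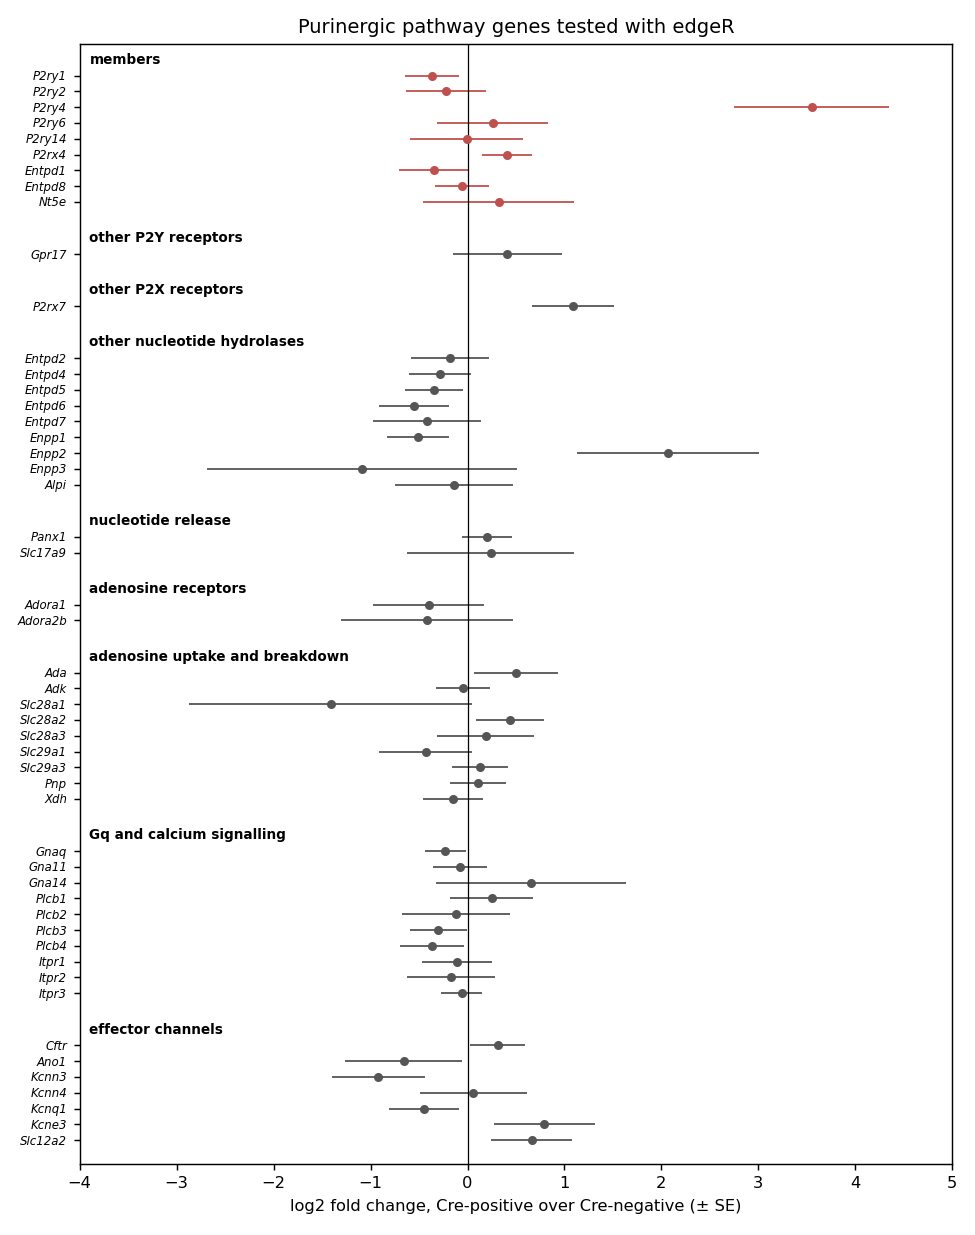
Log2 fold change, Cre-positive over Cre-negative, (horizontal axis) with its standard error for the 9 members tested (red) and 41 further pathway genes (grey), grouped by role. P2ry4, at 3.55, stands far to the right of the other members, which lie between -0.37 and 0.41.

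The profile of P2ry4 over the 5 libraries was set beside those of 11177 other genes, by the root mean square difference of log2 CPM after each gene was centred on its mean. The 5 nearest were Clca1 at 0.37, Zg16 at 0.57, Tff3 at 0.60, Gzmb at 0.73 and Jchain at 0.78 log2 units. Since the profile is mainly the contrast that chose P2ry4, this is a description over 5 libraries with no test. Clca1, Zg16 and Tff3 encode proteins that goblet cells secrete, Gzmb a protease of cytotoxic lymphocytes and Jchain the joining chain of secreted antibodies. Clca1 stood at 974 and 289 CPM in Cre-positive mice 1 and 2, against 41.5, 35.4 and 113 CPM in Cre-negative mice 1, 2 and 3. Like P2ry4 it was highest in Cre-positive 1, then Cre-positive 2, then Cre-negative 3, and lowest in Cre-negative 2. Jchain differed in that its Cre-positive 2 value, 13.4 CPM, lay below the 22.8 CPM of Cre-negative 3.
Of 8 fixed goblet cell markers 7 were tested and none reached a false discovery rate of 0.05 in edgeR's quasi-likelihood fit. The log2 fold change was above 0 for 7, as for 45.5% of all genes tested, and Cre-positive was higher without overlap for 6, as for 7.89% of all genes. The exception was Spink4, at 610 and 142 CPM in Cre-positive mice, against 87.5, 183 and 178 CPM in Cre-negative mice. None of the 8 was at 0 in a whole group. The 8 markers summed to 5080 and 2281 CPM in Cre-positive mice, against 574, 994 and 1364 CPM in Cre-negative mice. Their sum was lowest in Cre-negative 1, as were Muc2, Fcgbp, Agr2, Spink4 and Spdef singly. Clca1, Tff3 and Zg16 were lowest in Cre-negative 2, as was P2ry4. The Poisson intervals of P2ry4 in Cre-negative 1 and 2 overlapped (1.15 to 4.41 and 0.202 to 1.90 CPM). Lymphocyte markers had 6 of 12 tested, with the 439 CPM in Cre-positive 1 given above and Cd79a, a B cell marker, at 48 counts there and at 0 in Cre-positive 2 and the 3 Cre-negative libraries. The T cell marker Cd8a stood at 9.48 and 2.64 CPM in Cre-positive mice, against 1.92, 1.11 and 2.12 CPM in Cre-negative mice. Gzmb stood at 23.4 and 7.31 CPM in Cre-positive mice, against 0.958, 1.48 and 2.61 CPM in Cre-negative mice. Cd8a and Gzmb were the 2 of 6 tested lymphocyte markers higher in Cre-positive without overlap, as for 7.89% of all genes. In the other tested ones the groups overlapped. The part of goblet cell or lymphocyte content in the P2ry4 values was not tested.

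**Figure D4:**
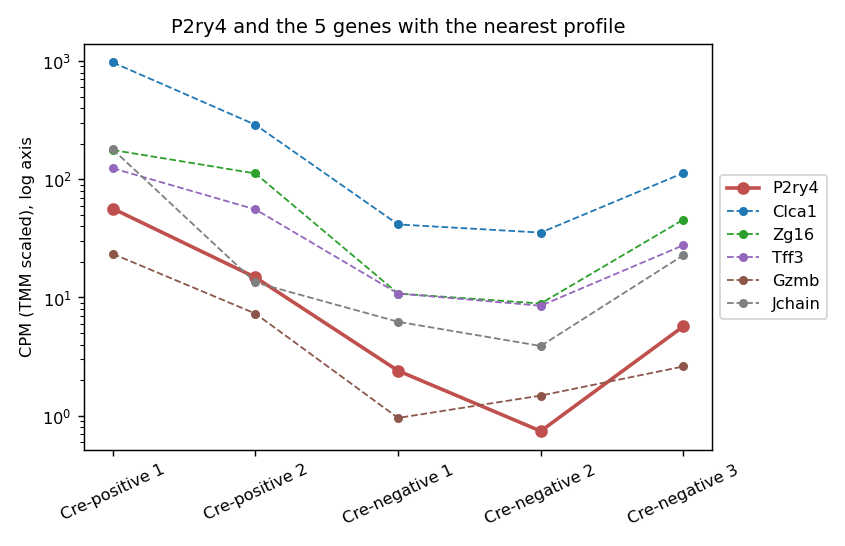
CPM (TMM scaled, log axis) of P2ry4 (thick red line) and of its 5 nearest genes in each library, Cre-positive left of Cre-negative; lines only join the points of a gene, since libraries have no order. P2ry4 and Clca1 are highest in Cre-positive 1 (56.5 and 974 CPM) and lowest in Cre-negative 2 (0.741 and 35.4 CPM).

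Several of the receptor genes are neighbours on the genome. P2ry2 and P2ry6 lie 21.9 kb apart on the minus strand of chromosome 7, and their per-length levels averaged 4.80 and 1.14 CPM per kb. P2ry14 lies 54.3 kb from P2ry13 on chromosome 3, where P2ry12 follows after 5.39 kb, and P2ry1 lies 1849 kb from P2ry14. P2ry4 lies on chromosome X, as does the P2ry10 pair, with no other member near it.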

How the data were processed

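Total RNA was depleted of ribosomal RNA, per the labels' protocols. The authors deposited 1 table of estimated counts by gene symbol, a column for each mouse. Partek and mm10 are named by the submitters' processing notes; how reads were aligned, annotated and counted is not stated there. Values were rounded to whole numbers. edgeR 4.0.16 (R 4.3.3) was run on all 5 mice with TMM factors, filterByExpr (minimum count 10), robust quasi-likelihood fitting on genotype and Benjamini-Hochberg adjustment at 0.05. The filter kept 14352 genes and removed 4846, and a gene can pass it on 2 libraries of either group. P2rx1 did not pass, and its fold change came from an unfiltered fit. A standard error is the size of the fold change over the root of F. With 3 residual degrees of freedom, the biological coefficient of variation was 33.1%. Every mouse has a number of its own in the labels, and chi-square per degree of freedom between pairs of libraries ran from 10.2 to 41.4, so no pair looked like repeats. The lowest value was between Cre-positive 2 and Cre-negative 3, across the groups, and the Cre-positive pair stood at 36.7.

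Exon lengths (the union of all annotated exons) and gene coordinates are GENCODE M21 on GRCm38, which mm10 denotes. Profiles used log2 CPM with a prior count of 2 and genes with a mean of at least 1; predicted models, pseudogenes and antigen receptor segments were left out. Named were all 10 members, the 5 nearest profiles and, in each pathway list, the 2 most abundant genes tested and any with an unadjusted p under 0.05. P2ry10, P2ry10b, P2ry12, P2ry13, P2rx5, P2rx6, Enpp1, Enpp3, Entpd6, Gnaq, Slc28a1, Slc10a2, Slc28a3, Onecut2, Lct, Anpep, Spink4, Cd8a and Cd79a were picked after their values were seen. So were Cdx2, Epcam, Fabp1 and Pf4. Fixed goblet cell, proximal and distal markers were also named, by the library in which each was highest or lowest. The members and lists were chosen with earlier results of these data known. Alternatives were RLE, upper-quartile or total-count scaling, the DESeq2 1.42.0 Wald test, limma 3.58.1 voom, no filter, no robust estimation, a filter of 5 CPM in 2 libraries, an adjusted p threshold of 0.1 and leaving out each mouse. The edgeR step was tested on simulated data.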

Additional observations from a re-analysis of the deposited data

How the results depend on the processing

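Of the 14 alternatives, 12 called 0 genes and 0 members, as edgeR did. DESeq2 called 19 genes (12 higher, 7 lower) and 1 member, P2ry4. Leaving out each mouse gave between 0 and 58 genes and 0 members, with the 58, all higher, without Cre-positive 2. In that fit and the one without Cre-positive 1, the lone Cre-positive mouse is assumed to vary like the others. P2ry4, P2ry1, P2rx4 and Entpd1 kept their direction in 13 of 13 alternatives that gave a fold change. P2ry4 had log2 fold changes of 3.55 to 3.62 under the other settings and 2.32 to 4.59 when a mouse was left out, with adjusted p from 0.0105 to 1. P2ry14 lies so near 0 that it turned positive with RLE factors (0.02), upper-quartile factors (0.01), total counts (0.04), DESeq2 (0.02), limma-voom (0.12) and no filter (0.03), and ran from -0.29 to 0.52 when a mouse was left out. Nt5e turned to -0.05 with limma-voom and ran from -1.51 to 1.14 when a mouse was left out. When a mouse was left out, P2ry2 ran from -0.83 to 0.26, P2ry6 from -0.64 to 0.89 and Entpd8 from -0.50 to 0.33. P2rx1 passed neither filter, so only the fit without one gave its value. Depth limits P2rx1, P2ry6 and P2ry14, with at most 28 counts in a library. No paired analysis was possible because the labels number no replicates and nothing in them pairs mice across groups.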
